A study of Rattus norvegicus with 10 samples.

Results

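Rab GTPases are small switch proteins that sit on the membranes of transport vesicles and organelles. Bound to GTP, each recruits effectors such as motors, tethers and fusion factors. Exchange factors load the GTP and GTPase-activating proteins end the active state. Different Rabs act at different steps of traffic, and several can share a step. In axons they steer the outgoing supply of new membrane and the returning endosomes that carry neurotrophin receptors. The Rab genes described here are those with a single symbol of the form Rab, number and optional letter in the array's probe table, without Rab3a. They number 55 of 14217 genes. The rule matched names only and used no measured value, but it was set with earlier results of these data known.

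RNA came from axons of dorsal root ganglion neurons, the sensory neurons of the body wall and limbs, of adult rats and of rat embryos at day 16 (E16), with 5 biological replicates for each stage. Ganglion explants of both stages were cultured in compartmented chambers over 4 days, and axons longer than 1 cm were taken from the outer compartment. The labels name no strain, sex, treatment or pooling of animals, so p-values measure the spread between these samples. RNA was hybridised to Affymetrix rat genome arrays, and all values below are log2 values made with RMA (robust multi-array average). Each gene is shown by its probe set with the highest mean over the 10 arrays. A stage difference is adult minus E16 and was fitted with limma. Calls are at an adjusted p under 0.05, with Benjamini-Hochberg adjustment over 31042 probe sets.

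Neuronal markers were present in both stages, with 5 of 15 above background on all adult arrays and 11 of 15 on all E16 arrays. Their mean level per array was 4.76 to 6.76 in adult and 6.85 to 9.08 in E16 axons, and 7 of 15 were called lower. Of 19 macrophage and leucocyte markers, 11 were called higher, at a mean level of 6.83 to 8.56 in adult and 3.42 to 5.96 in E16 axons. Schwann cell, satellite glial, fibroblast and endothelial markers had 0 calls by limma. The spread of all values on an array (SD) was 1.49 to 2.07, and adult replicates 4 and 5 and E16 replicates 1 and 5 lay above the middle of this range (wide arrays, 4; narrow arrays, 6). Poly-A control transcripts averaged 10.7 ± 1.7 on adult and 2.26 ± 0.31 on E16 arrays (SD, n = 5 each), and in every result below the labelling of an array cannot be told apart from its stage. In bulk RNA, fewer cells or axons of a kind and less RNA in each cannot be told apart either.

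No Rab gene passed the threshold: 0 of 55 were called higher and 0 lower by limma. Among all genes 1.26% were called, 0.612% higher and 0.647% lower, a rate that would correspond to 0.692 of 55 genes. At an unadjusted p under 0.05 there were 9 Rab genes, 4 higher and 5 lower in adult axons, against 13.3% of all genes. The stages did not overlap for 0 Rab genes, against 3.54% of all genes. The lowest adjusted p was 0.17, for Rab31. The median log2 change was -0.25 over the 55 Rab genes and 0.00 over all genes (-0.00086), with 19 positive and 36 negative values. Over only the 10 Rab genes above background (defined below) on every array, it was 0.21. Over all genes above background on every array, it was -0.20. The median of the 55 Rab genes was 0.24 within the 4 wide arrays and -0.16 within the 6 narrow arrays, and -0.45 without adult replicate 5. The number of genes at an unadjusted p under 0.05 was 5 without adult replicate 3.

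The precision of these changes sets what could be seen. Standard errors of the 55 changes ran from 0.23 to 1.12 with a median of 0.57, against a median of 0.47 over all genes. The smallest change called among all genes was 1.35 on the log2 scale. The 95% interval of Rab7a, for example, spanned -1.90 to 0.59, and that of Rab5a spanned -2.80 to 2.16. The absence of calls therefore does not show equal levels in the 2 stages.

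**Figure D1:**
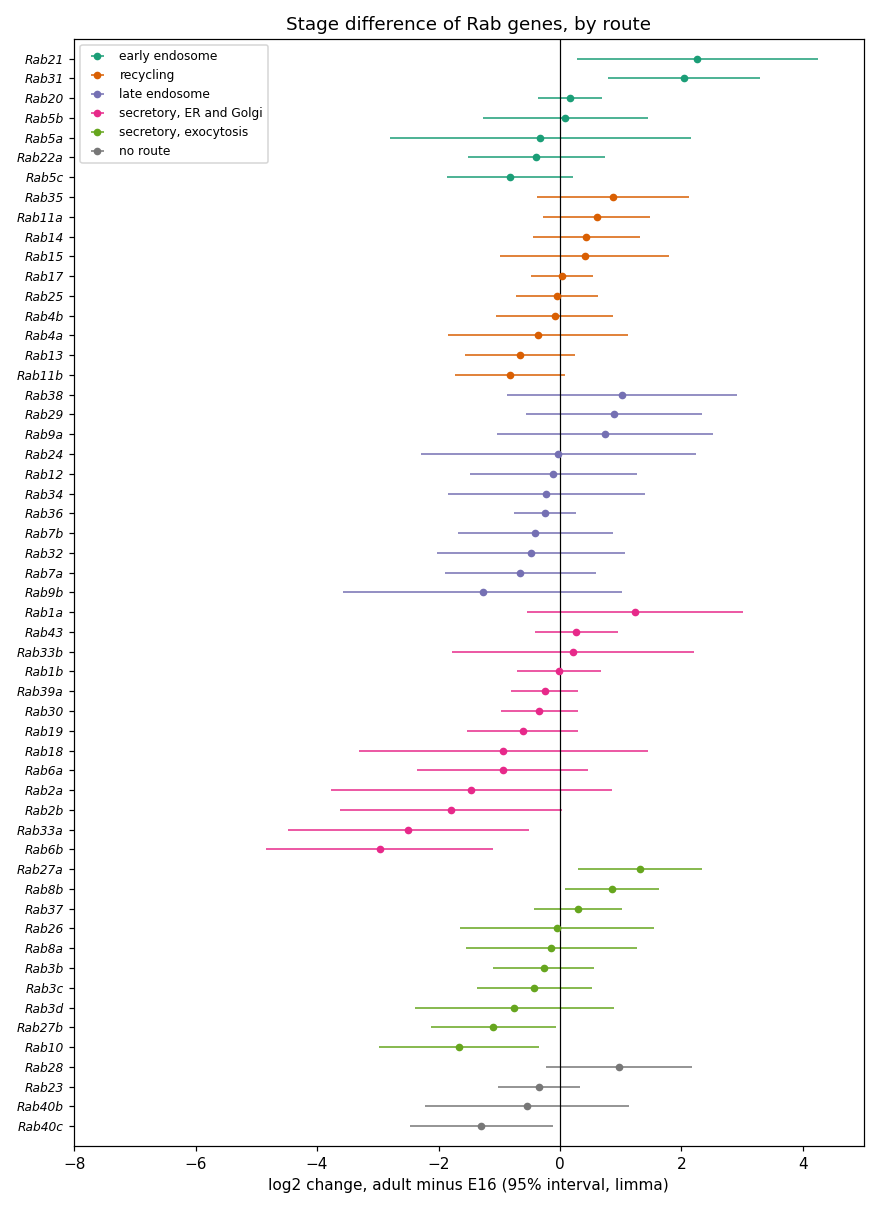
Log2 change (adult minus E16) of each of the 55 Rab genes, one row a gene and coloured by route, with 95% intervals from limma over 5 adult and 5 E16 arrays. Points range from -2.97 (Rab6b) to 2.26 (Rab21), and most intervals cross 0.

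Detection above background was counted for each stage. Background was taken on each array as the level under which 95% of 112 probe sets lay whose genes belong to tissues such as liver, and it was 3.89 to 4.87. Above it on all 5 arrays of a stage were 14 Rab genes (25.5%) in adult and 18 (32.7%) in E16 axons, against 13.3% of all genes in adult and 17.0% in E16 axons. The E16 count was the higher one both for the Rab genes and for all genes, and no test was made of it. With the level at the 99th percentile of those probe sets the counts were 0 and 0, and at the 90th 22 in adult and 25 in E16 axons. The genes named next are by the level under which 95% lay. Above it on all arrays of both stages were Rab1a, Rab1b, Rab6a, Rab7a, Rab8b, Rab11a, Rab11b, Rab12, Rab14 and Rab28, 18.2% of the family against 8.52% of all genes. Rab15, Rab21, Rab29 and Rab31 passed on all adult arrays only. Rab2a, Rab2b, Rab6b, Rab8a, Rab10, Rab22a, Rab34 and Rab40c passed on all E16 arrays only. On 0 arrays of either stage passed Rab17, Rab19, Rab20, Rab25, Rab36, Rab37 and Rab39a, 12.7% of the family against 32.7% of all genes. Rab17 and Rab25 are known as Rabs of epithelial cells. The other 26 genes passed on some arrays.

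The early endosome receives cargo from the plasma membrane, and Rab5a, Rab5b and Rab5c drive its fusion there. Its 7 genes had a median log2 change of 0.09. Rab21, which binds integrins on their way into the cell, was at 6.64, 6.96, 8.08, 8.02 and 7.98 on adult arrays and at 6.72, 6.06, 3.24, 2.72 and 7.64 on E16 arrays. The adult arrays were close together, whereas E16 replicates 3 and 4 lay below background and the others near the adult range. The change was 2.26 ± 0.90 (SE; adjusted p = 0.41). It was 0.82 within wide and 3.22 within narrow arrays.

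Rab31, of the Rab22 subfamily that acts between the trans-Golgi network and endosomes, was at 7.46, 6.04, 8.26, 8.08 and 7.56 on adult arrays and at 7.14, 4.77, 4.70, 5.94 and 4.65 on E16 arrays. Only E16 replicate 1 exceeded an adult array. The change was 2.04 ± 0.57 (SE; adjusted p = 0.17), with 1.93 within wide and 2.12 within narrow arrays. A second probe set of Rab31 was below background on every array and changed by -0.03. E16 replicate 1, the highest E16 array for Rab31, also had the highest E16 level of macrophage markers, 5.96 against 3.42 to 3.62 on the other 4. Whether these cells contribute to the Rab31 signal was not tested. Rab22a, the close relative, averaged 5.41 ± 0.84 in adult and 5.80 ± 0.92 in E16 axons (SD, n = 5; adjusted p = 0.92). Another probe set of Rab22a, above background on 2 of 5 arrays of each stage, changed by 1.01 (adjusted p = 0.77 by limma). Rab5a averaged 5.38 ± 2.25 in adult and 5.70 ± 1.80 in E16 axons (SD; adjusted p = 0.98), a spread within each stage several times its difference.

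Recycling Rabs return cargo to the surface, Rab4 directly from early endosomes and Rab11 through the recycling endosome that supplies integrins and Trk receptors to axons. The median change of the 10 genes was -0.01. Rab11a was above background on every array and averaged 9.30 ± 0.86 in adult and 8.70 ± 0.36 in E16 axons (SD, n = 5; change 0.60 ± 0.40 SE; adjusted p = 0.74). Its paralog Rab11b was at 6.82, 5.34, 6.94, 6.33 and 7.73 on adult arrays and at 7.94, 7.28, 7.30, 7.74 and 7.02 on E16 arrays. All but 1 adult array (replicate 5) lay below the lowest E16 array, and the change was -0.82 ± 0.41 (SE; adjusted p = 0.57). Rab35, a recycling Rab that also promotes neurite outgrowth, was at 3.25, 3.52, 5.03, 5.27 and 4.46 on adult arrays and at 4.38, 4.66, 2.33, 2.49 and 3.29 on E16 arrays. Most of these values were below background, and the stages overlapped widely (change 0.88 ± 0.57 SE; adjusted p = 0.72). Rab14, which links the Golgi with endosomes, averaged 8.19 ± 0.82 in adult and 7.76 ± 0.42 in E16 axons (SD; adjusted p = 0.85).

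Late endosomes carry cargo to lysosomes, and in sensory axons Rab7a marks the endosomes that bring neurotrophin receptors back to the cell body. Rab7a averaged 7.69 ± 0.96 in adult and 8.34 ± 1.00 in E16 axons (SD, n = 5; adjusted p = 0.83). The median change of the 11 late endosome genes was -0.23, with 1.00 within wide and -0.61 within narrow arrays (0.998 and -0.608). Rab9b, a paralog of the late endosome to Golgi factor Rab9a, was at 2.81, 3.07, 5.74, 2.06 and 4.53 on adult arrays and at 8.08, 3.24, 3.56, 3.30 and 6.38 on E16 arrays. The highest values were those of the 2 wide E16 arrays, and the change of -1.27 ± 1.04 (SE; adjusted p = 0.81) was -3.94 within wide and 0.50 within narrow arrays. Rab38, which with Rab32 serves melanosomes and other lysosome-related organelles, was at 2.90, 5.75, 2.93, 6.39 and 7.07 on adult arrays and at 4.77, 5.11, 3.35, 2.91 and 3.82 on E16 arrays. The 2 wide adult arrays were the highest, and the change was 1.02 ± 0.86 (SE; adjusted p = 0.82). It was 2.44 within wide and 0.07 within narrow arrays. Rab12, which acts in degradation of receptors, averaged 6.30 ± 1.48 in adult and 6.40 ± 0.44 in E16 axons (SD; adjusted p = 0.99).

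The secretory Rabs of the endoplasmic reticulum and Golgi had the lowest median of the 5 routes, -0.61 over 13 genes, of which 10 were negative. Over only the 3 of them above background on every array, the median was -0.02. The median of the 13 was -0.10 within wide and -0.79 within narrow arrays. Rab6b, the brain-enriched form of the Golgi Rab6 that binds retrograde motors, was at 3.10, 5.67, 2.69, 4.43 and 5.76 on adult arrays and at 8.62, 7.09, 6.76, 5.02 and 9.02 on E16 arrays. Of the E16 arrays only replicate 4 fell within the adult range. The change, the lowest of the family, was -2.97 ± 0.85 (SE; 95% interval -4.84 to -1.10; adjusted p = 0.18). It was -3.72 within wide and -2.47 within narrow arrays, and the second probe set of Rab6b changed by -1.24 (adjusted p = 0.48). The ubiquitous paralog Rab6a averaged 7.39 ± 1.10 in adult and 8.33 ± 1.13 in E16 axons (SD, n = 5; change -0.95; adjusted p = 0.74).

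Rab33a marks post-Golgi vesicles in growing axons, but was listed here with the endoplasmic reticulum and Golgi route. It was at 3.62, 3.36, 3.91, 2.55 and 5.98 on adult arrays and at 7.35, 4.09, 7.65, 4.59 and 8.22 on E16 arrays. Adult values were below background on 4 of 5 arrays. E16 values split into 3 high and 2 low arrays, and the change was -2.49 ± 0.90 (SE; adjusted p = 0.34). Rab2b, of the pair that keeps the early secretory pathway, averaged 4.85 ± 1.39 in adult and 6.64 ± 1.56 in E16 axons (SD; change -1.80; adjusted p = 0.52), and its second probe set changed by -2.93 (adjusted p = 0.32). Rab1a, needed for transport out of the endoplasmic reticulum, averaged 9.44 ± 1.26 in adult and 8.20 ± 1.59 in E16 axons (change 1.24; adjusted p = 0.72), and Rab1b averaged 5.86 ± 0.41 in adult and 5.88 ± 0.52 in E16 axons (adjusted p = 0.99). Rab6b and Rab33a are known as brain-enriched, and neuronal markers were lower in adult axons as given above. The part of that difference in the Rab6b and Rab33a values was not tested.

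The sequences upstream of the start are shown for Rab6b, the gene with the lowest change, for its paralog Rab6a, and for the Rab11 pair, a pair above background on every array. Each is the 250 bases before the annotated start in RefSeq, build GRCr8, 5′ to 3′ along the gene. Capitals mark GC boxes, the motif GGGCGG or CCGCCC on either strand, with overlapping matches counted each. Positions are chr8:112573973-112574222, plus strand, for Rab6b, chr1:164369783-164370032, plus strand, for Rab6a, chr7:15236755-15237004, minus strand, for Rab11b and chr8:74141685-74141934, minus strand, for Rab11a.
Rab6b: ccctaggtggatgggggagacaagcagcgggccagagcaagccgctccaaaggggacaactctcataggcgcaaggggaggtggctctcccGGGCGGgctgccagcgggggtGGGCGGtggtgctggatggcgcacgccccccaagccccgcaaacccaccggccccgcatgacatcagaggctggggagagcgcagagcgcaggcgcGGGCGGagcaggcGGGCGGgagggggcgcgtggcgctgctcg
Rab6a: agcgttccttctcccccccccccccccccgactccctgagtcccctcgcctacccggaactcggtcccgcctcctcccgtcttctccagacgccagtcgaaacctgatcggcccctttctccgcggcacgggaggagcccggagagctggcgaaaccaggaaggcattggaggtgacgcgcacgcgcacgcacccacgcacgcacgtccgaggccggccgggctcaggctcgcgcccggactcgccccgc
Rab11b: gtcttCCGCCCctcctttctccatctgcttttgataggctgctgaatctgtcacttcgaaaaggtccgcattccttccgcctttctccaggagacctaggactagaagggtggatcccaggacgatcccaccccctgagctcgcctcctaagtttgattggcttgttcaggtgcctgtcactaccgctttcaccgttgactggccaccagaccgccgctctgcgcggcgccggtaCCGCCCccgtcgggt
Rab11a: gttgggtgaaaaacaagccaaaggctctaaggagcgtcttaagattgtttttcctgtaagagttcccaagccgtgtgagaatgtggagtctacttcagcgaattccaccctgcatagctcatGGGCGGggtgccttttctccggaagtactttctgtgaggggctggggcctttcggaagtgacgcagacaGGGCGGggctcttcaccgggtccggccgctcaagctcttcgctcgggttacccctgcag

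Rab6b held 4 GC boxes and 23 CG dinucleotides in this window, and Rab6a held 0 and 31. Rab11b held 2 GC boxes and 17 CG dinucleotides, and Rab11a held 2 and 13. Of the 55 Rab genes, 44 had an upstream window by gene number, and 34 of them (77.3%) held a GC box, against 54.2% of 11700 matched array genes. The TATA motif TATAAA, searched in the direction of the gene, was in 0 of the 44 windows and in 5.55% of those of array genes. The median number of CG dinucleotides was 17 over Rab genes and 15 over array genes. It was 22 (range 3 to 31) in the 9 matched Rab genes above background on all arrays. In the 5 matched genes above it on none it was 10 (range 6 to 17). The medians were 25 in the 5 matched genes that passed on all E16 arrays only and 17.5 in the 4 on all adult arrays only. In the 21 matched genes that passed on some arrays it was 16. All array genes were not split in this way, and no link with detection was tested. These matches describe letters in the window and no bound factor.

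Exocytic Rabs bring vesicles to the plasma membrane, and the median change of the 10 genes was -0.20. Rab10, which targets membrane precursor vesicles into growing axons, was at 5.36, 3.44, 4.27, 6.55 and 6.50 on adult arrays and at 7.45, 6.28, 6.35, 7.12 and 7.26 on E16 arrays. The 2 wide adult arrays exceeded the lowest E16 arrays, and the narrow adult arrays lay below all E16 arrays. The change was -1.67 ± 0.60 (SE; adjusted p = 0.33), but a second probe set of Rab10 averaged 5.16 in both stages (change 0.00; adjusted p = 1.00). Rab27a, which docks secretory vesicles and is abundant in leucocytes, was at 4.37, 4.69, 2.44, 4.20 and 4.04 on adult arrays and at 1.93, 2.83, 3.66, 2.49 and 2.23 on E16 arrays. It exceeded background on 1 adult array and on 0 E16 arrays, so the change of 1.32 ± 0.46 (SE; adjusted p = 0.31) concerns values that mostly lay below background. Macrophage and leucocyte markers were higher in adult axons as given above, and their part in the Rab27a values was not tested. Rab27b, the form of neurons and platelets, averaged 3.31 ± 0.67 in adult and 4.41 ± 0.88 in E16 axons (SD; change -1.10; adjusted p = 0.46). Rab8b, of the pair that works in polarised exocytosis, averaged 8.03 ± 0.50 in adult and 7.17 ± 0.60 in E16 axons (SD; change 0.85; adjusted p = 0.43). The regulated-secretion Rabs Rab3b, Rab3c and Rab3d had changes of -0.27, -0.42 and -0.75 (adjusted p = 0.93, 0.87 and 0.86).

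The other 4 genes were given no route. Rab40c, a Rab fused to a ubiquitin ligase adaptor, was at 4.49, 4.30, 5.10, 6.10 and 5.27 on adult arrays and at 7.63, 6.29, 6.69, 4.66 and 6.46 on E16 arrays. Only E16 replicate 4 lay within the adult range, and the change was -1.29 ± 0.53 (SE; adjusted p = 0.43). Rab28, linked to cilia and photoreceptors, was at 8.46, 6.52, 8.86, 9.11 and 9.72 on adult arrays and at 7.45, 8.21, 7.09, 8.05 and 7.00 on E16 arrays. Adult replicate 2 was the lowest of all 10 and the other adult arrays were the highest, with a change of 0.98 ± 0.55 (SE; adjusted p = 0.65). It was 2.19 within wide and 0.17 within narrow arrays.

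**Figure D2:**
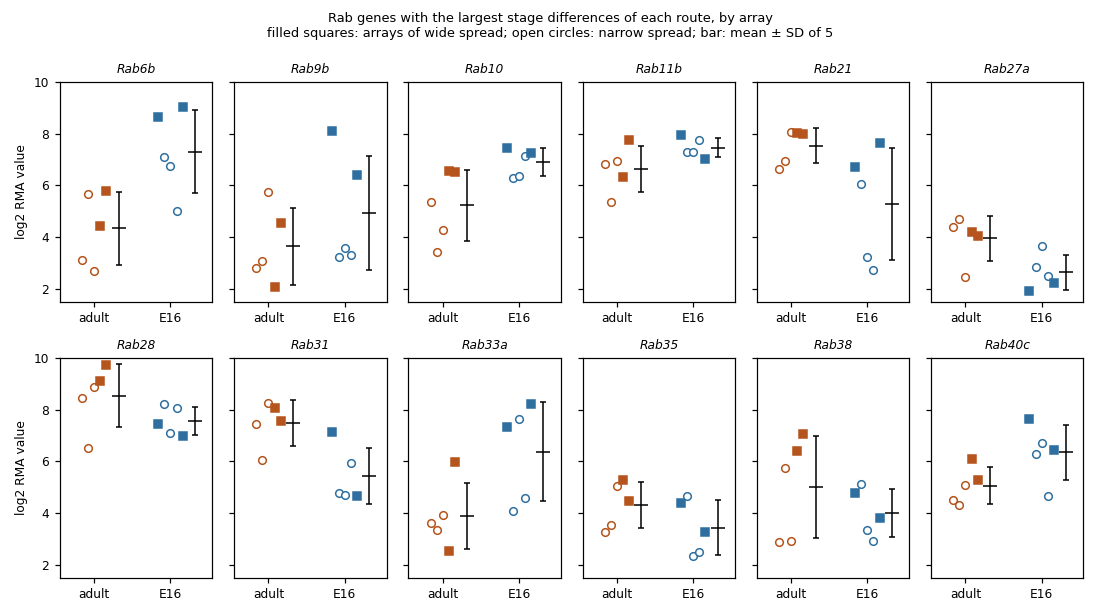
Log2 RMA value on each array (vertical axis) for the 2 Rab genes of each route with the largest absolute change, adult arrays left and E16 arrays right, with mean ± SD of 5. The stages overlap in all 12 panels. The filled squares (wide arrays) are the highest of their stage for Rab10, Rab28, Rab38 and Rab40c in adult and for Rab6b, Rab9b, Rab10 and Rab21 in E16 axons.

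The stage difference was also set against the difference between wide and narrow arrays. The absolute wide minus narrow difference exceeded the absolute stage difference in 35 of 55 Rab genes, 63.6%, a share like the 64.4% of all genes. The median wide minus narrow difference was 0.80 over the Rab genes and 0.22 over all genes. It was 1.49 for the endoplasmic reticulum and Golgi route and 1.24 for late endosome genes, against 0.18 for recycling and 0.12 for exocytic genes. For Rab5a the wide arrays were at 6.69 to 7.83 and the narrow at 3.13 to 6.31. For Rab33b, a Golgi Rab of autophagy, they were at 4.72 to 6.05 and 1.86 to 3.31. These were the only 2 of 55 Rab genes whose wide arrays all lay above the narrow ones, against 4.41% of all genes. Rab31 was among the members with a larger stage than array difference, 2.04 against 0.66.

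**Figure D3:**
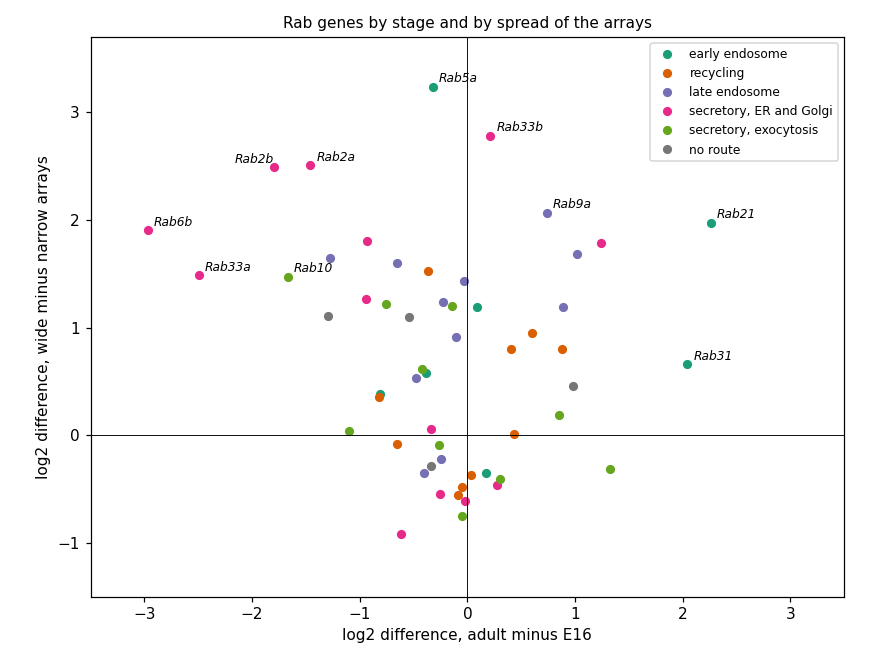
Each point is 1 of 55 Rab genes, with the log2 stage difference (adult minus E16) on the horizontal and the log2 difference between wide and narrow arrays on the vertical axis. Rab5a and Rab33b lie high near 0 stage difference, while Rab31 lies to the right at a low array difference.

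Close paralogs measured on the same array were then set against each other. This removes a shift common to all values of an array, but not a difference in spread. Rab5b minus Rab5a, for example, was -1.97 to -0.65 on the wide arrays and -0.60 to 2.76 on the narrow arrays. The difference between 2 paralogs was compared between stages by a two-sided exact permutation test over all labellings of the 10 arrays, in 17 pairs. At least 3 pairs at the smallest possible p were needed for any to pass after adjustment. After adjustment 0 pairs passed, with a lowest adjusted exact p of 0.067, and 4 pairs had an unadjusted p under 0.05. Rab33a minus Rab33b was 1.13, 0.87, 0.60, -2.22 and 0.18 on adult arrays and 2.63, 1.34, 5.23, 2.74 and 2.17 on E16 arrays. These were the only differences that did not overlap (-2.71 between the stage means; exact permutation p = 0.0079, the smallest that the labellings give). Rab33b was above background on only 1 of 5 adult and 2 of 5 E16 arrays and Rab33a on 1 of 5 adult arrays, so the size of this difference rests largely on values below background. Rab11b minus Rab11a averaged -2.67 ± 0.86 on adult and -1.24 ± 0.60 on E16 arrays (SD, n = 5; exact permutation p = 0.016). Both Rab11 genes were above background on every array by the probe sets shown. A second probe set of Rab11a, not used in the pair, was above background on 4 of 5 arrays of each stage. It changed by -0.47 (adjusted p = 0.97 by limma), against 0.60 for the one shown. Rab22a minus Rab31 averaged -2.07 ± 1.04 on adult and 0.36 ± 1.04 on E16 arrays (SD; exact permutation p = 0.016 with n = 5). Another probe set of Rab22a, not used in the pair, changed by 1.01 (adjusted p = 0.77 by limma), against -0.39 for the one shown. That other probe set was above background on 2 of 5 arrays of each stage. Rab27b minus Rab27a averaged -0.64 ± 0.86 on adult and 1.78 ± 1.26 on E16 arrays (SD; exact permutation p = 0.016), with most Rab27 values below background. Rab6b minus Rab6a moved by -2.02 (exact permutation p = 0.13, adjusted 0.46).

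**Figure D4:**
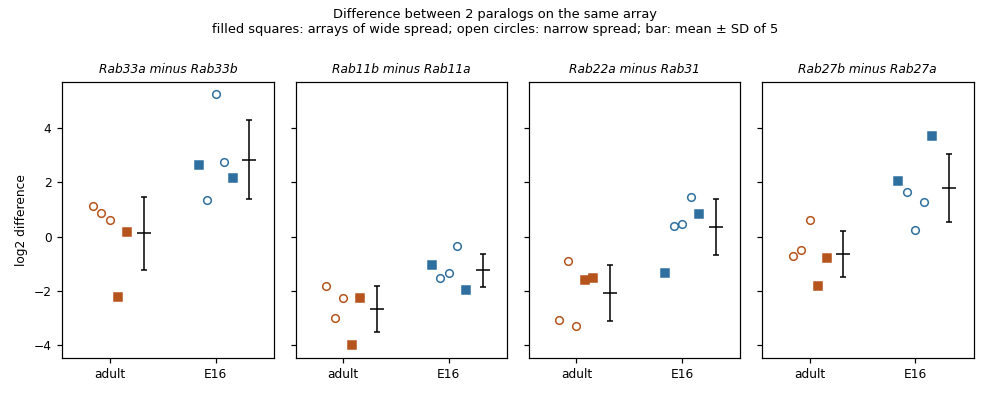
Log2 difference between 2 paralogs on the same array (vertical axis) for the 4 pairs with an unadjusted exact permutation p under 0.05, adult arrays left and E16 arrays right, with mean ± SD of 5. All 4 differences are lower in adult axons, and only those of Rab33a minus Rab33b do not overlap.

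Genes that run the Rab cycle were counted from a list of 143 symbols, of which 124 were measured. The list came from general knowledge but was chosen with earlier results of these data known, so its counts are descriptions only. By limma 2 rose and 3 fell, 5 of 124 against 1.26% of all genes. The median change of the 124 was 0.04. The stages did not overlap for 10 of 124 genes, 8.06%, against 3.54% of all genes. Of 31 GTPase-activating proteins 1 rose and 2 fell, of 33 exchange factors 1 rose, of 55 effectors 1 fell, and of 5 prenylation factors, GDP dissociation inhibitors and acceptors of prenylated Rabs 0 passed.

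Dennd4c, an exchange factor for Rab10 in mouse fat cells, was at 5.59, 5.11, 6.34, 6.02 and 4.87 on adult arrays and at 2.68, 3.20, 2.74, 3.31 and 3.37 on E16 arrays. All E16 values were below background. It rose by 2.53 ± 0.32 (SE; adjusted p = 0.0053), at least 2.16-fold against background. Tbc1d4, the GTPase-activating protein of Rab10 in insulin-driven glucose transporter traffic, was likewise below background on every E16 array. It averaged 7.70 ± 1.28 in adult and 2.59 ± 0.20 in E16 axons (SD, n = 5), at least 9.33-fold higher (adjusted p = 0.0015), while its second probe set changed by 1.63 (adjusted p = 0.31).

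Sytl3, a synaptotagmin-like effector of Rab27, was at 2.05, 3.10, 3.37, 5.61 and 4.35 on adult arrays and at 8.67, 8.77, 9.20, 9.38 and 8.74 on E16 arrays. All E16 values lay above all adult values, and it fell by 5.25 ± 0.56 (SE; adjusted p = 0.0019). Only 2 of 5 adult arrays were above background, so the size of the change rests in part on values below it. Tbc1d9b, a GTPase-activating protein that acts on Rab11 in dog kidney cells, was at 4.55, 4.53, 5.88, 6.60 and 5.90 on adult arrays and at 9.09, 9.63, 9.44, 9.53 and 9.55 on E16 arrays. Of the adult arrays 3 of 5 were above background. It fell by 3.96 ± 0.41 (SE; adjusted p = 0.0015), but its second probe set changed by 0.01 (adjusted p = 0.99). Sgsm2, a GTPase-activating protein reported to act on Rab32 in mouse melanocytes, was at 2.83, 2.66, 3.57, 2.75 and 2.93 on adult arrays and at 4.82, 5.91, 4.82, 5.82 and 4.96 on E16 arrays. All adult values were below background. It fell by 2.32 ± 0.31 (SE; adjusted p = 0.0072), at least 1.62-fold lower against background.

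Among genes that did not pass, the effector Rilpl2, which binds Rab8 and Rab10 and the motor myosin Va, was at 8.46, 7.21, 7.17, 8.09 and 7.20 on adult arrays and at 5.65, 2.80, 4.04, 6.55 and 4.13 on E16 arrays. The stages did not overlap, with 2 of 5 E16 arrays above background and a change of 2.99 ± 0.64 (SE; adjusted p = 0.065). Trappc1, a subunit of the exchange factor of Rab1, averaged 5.07 ± 1.68 in adult and 6.94 ± 0.44 in E16 axons (SD; adjusted p = 0.36). Chm, the escort protein that presents Rabs for prenylation, had a change of 0.38 (adjusted p = 0.78). Rabac1, an acceptor that binds prenylated Rabs, had a change of -0.97 (adjusted p = 0.70). Within the 6 narrow arrays the adjusted p was 0.057 for Dennd4c and 0.079 for Sgsm2. Within the 4 wide arrays 0 of 124 Rab cycle genes and 0 of all genes were called by limma. The changes of the 5 called genes there were 2.42 for Dennd4c, 4.31 for Tbc1d4, -3.72 for Sytl3, -3.07 for Tbc1d9b and -2.05 for Sgsm2. Their direction could not differ there, since the stages of these 5 genes did not overlap over all arrays. The part of macrophage and neuronal RNA in these 5 genes was not tested.

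**Figure D5:**
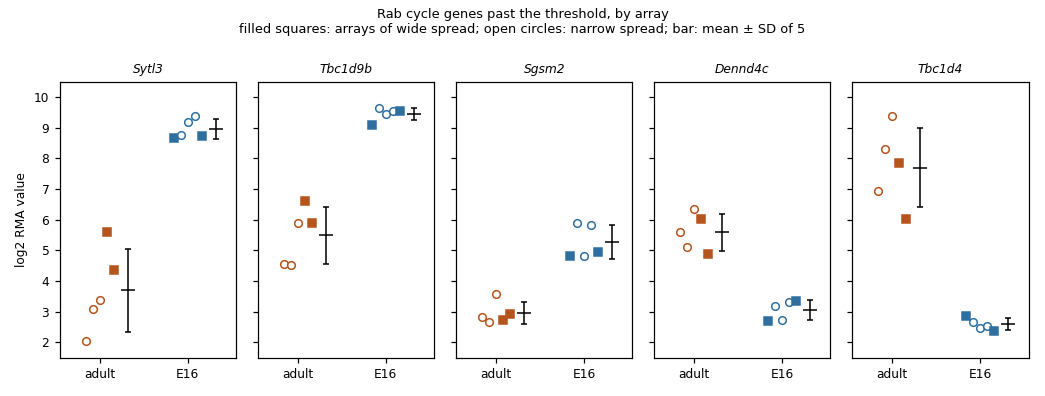
Log2 RMA value on each array (vertical axis) of the 5 Rab cycle genes past the threshold, adult arrays left and E16 arrays right, with mean ± SD of 5. Sytl3, Tbc1d9b and Sgsm2 are lower and Dennd4c and Tbc1d4 higher on every adult array than on any E16 array.

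Probe sets of one gene did not always give one direction. The 55 Rab genes had 95 probe sets with a single symbol, of which 0 passed the threshold (lowest adjusted p = 0.17). Of 26 Rab genes with several probe sets, 13 had values of 1 sign and 13 had both signs. Those with differing signs included Rab11b, whose second probe set was below background on every array and changed by 0.44. They also included genes whose other probe set was mostly or always above background. For Rab14, another probe set was above background on every array and changed by -0.83, against 0.43 for the one shown. For Rab11a the second probe set changed by -0.47, against 0.60. Rab2a agreed between its 2 probe sets (-1.46 and -1.37), as did Rab27b (-1.10 and -1.04). For 3 further probe sets the table names both Rab1a and Rab1b, and these were not used.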

How the data were processed

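The authors deposited log2 values made with RMA, per the submitters' processing notes; its version and options are not known here, and base 2 was taken from the range. RMA compresses differences of dim probe sets. There are no detection calls, and the number of arrays limits the precision. Of 31099 probe sets, 57 controls were left out. Names came from the platform table (20826 probe sets with 1 symbol, 14217 genes). Stage differences were fitted with limma 3.58.1 (R 4.3.3; lmFit, eBayes, two-sided) over all 31042 probe sets and 10 arrays, with Benjamini-Hochberg adjustment. Paralog differences were tested by exact permutation in Python 3.11.15. The fit and the permutation test were tested on simulated data. Routes, Rab cycle genes, pairs and markers were listed from general knowledge; the members and lists were chosen with earlier results of these data known. Values on every array are given for Rab genes past the threshold or without overlap and for the 2 largest changes of each route; of the Rab cycle, called genes and the 2 largest changes of each class are named. Other Rab genes are named as members. Alternatives were scaling, a filter on dim probe sets, variance models, array weights, replicate and spread blocks, subsets of arrays, other probe set summaries and other background levels. Replicate numbers did not pair the samples (correlations of deviations -0.12 to 0.28).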

Additional observations from a re-analysis of the deposited data

Results flagged for a closer look

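In 9 of 110 groups (a Rab gene in 1 stage) a single array lay far from the other 4, by a gap of over 0.71 of the group's whole range; chance gives about 1 in 20. Of these, 6 were high and 3 low. In adult axons Rab27a in replicate 3 was at 2.44 with the nearest array at 4.04, and Rab37 in replicate 2 was at 3.37 with the nearest at 2.37. E16 replicate 4 was low for Rab5b (3.56, nearest 5.63) and Rab15 (3.86, nearest 5.99), and high for Rab22a (7.38, nearest 5.80) and Rab37 (2.92, nearest 1.99). E16 replicate 3 was high for Rab4b (5.48, nearest 3.61) and Rab26 (6.05, nearest 2.66). E16 replicate 5 was high for Rab40b (6.31, nearest 2.71). Rab37 was below background on every array.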

How the results depend on the processing

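The count of 0 called Rab genes was the same under all 21 alternatives, with lowest adjusted p values of 0.051 (Rab2b) with wide against narrow arrays as a term, 0.060 (Rab6b) with dim probe sets filtered out (33 Rab genes left) and 0.061 to 0.29 without each array in turn. The median Rab change was between -0.45 and -0.19 without each array in turn, -0.09 with the mean of a gene's probe sets, and 0.24 within wide arrays. The 5 called Rab cycle genes became 8 of 68 with dim probe sets filtered out, where fewer probe sets are tested, 0 within the 4 wide arrays, where 0 genes of all were called, and 5 to 7 without each array in turn. Pairs past the threshold numbered 0 in all 14 alternatives, which says little, since with all arrays 1 pair at the smallest exact permutation p adjusts to 0.13. With the replicate number as a block, 0 Rab genes and 6 Rab cycle genes were called, Sgsm2 lost its call (adjusted p = 0.057) and Rilpl2 (0.041) and Uso1 gained one; the numbers do not pair the samples. Of the 55 Rab genes, 18 had the other sign within wide and 5 within narrow arrays. Among genes named by the rule, the sign differed for Rab9b within narrow arrays (0.50) and, within wide arrays, for Chm (-0.20) and Rabac1 (0.021); the cause was not tested. Rab genes above background on all adult arrays numbered 22 at the 90th percentile and 0 at the 99th, and on all E16 arrays 25 and 0. With 4 of 5 arrays required they numbered 20 in adult and 27 in E16 axons. Signal over background limits the dim Rab genes, whose changes RMA compresses.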
